A study of Caenorhabditis elegans with 8 samples.

Results

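The piRNA loci 21ur-9719, 21ur-9823 and 21ur-8285 lie opposite exons of long intergenic noncoding RNA (lincRNA) genes of Caenorhabditis elegans. They are 3 of the 9742 piRNA loci in the table, where they carry the names cel-piR-156, cel-piR-15153 and cel-piR-15254. They were chosen by name after their levels in these same libraries had been seen. Their levels, and the differences of those levels from wild type (WT), are therefore given as a description and without a test. Small RNAs of whole worms were sequenced from kin-3 worms cultured with 500 µM IAA (auxin) and from untreated worms of the genotypes prde-1, prg-1 and WT, with 2 libraries each. Because IAA was given only to the kin-3 worms, the effects of genotype and of IAA cannot be told apart there. The sources used here do not give the alleles, the strain background, the stage or the number of worms. The study asks whether casein kinase II promotes piRNA production by acting on TOFU-4, and kin-3 encodes the catalytic subunit of that kinase.

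In C. elegans, piRNAs are short germline RNAs that begin with uridine and act as guides of the Piwi protein PRG-1. Most of their genes lie in clusters on chromosome IV and are transcribed with the help of the upstream sequence transcription complex, to which PRDE-1 and TOFU-4 belong. A piRNA guides PRG-1 to matching transcripts, and RNA-dependent RNA polymerases then copy such transcripts into secondary small RNAs, which are antisense to the transcript and carry a 5′ triphosphate. The RNA was treated with PIR-1, a phosphatase that trims 5′ triphosphates so that such RNAs can also be ligated and sequenced. LincRNAs are transcripts from between the coding genes that are not known to encode a protein. The table gives 1 value per locus and library, in RPM, which are reads scaled to a library total of 1000000. Hence reads of a piRNA and reads of another small RNA with the same position and strand cannot be told apart in it. In RNA from whole worms, fewer cells that make an RNA and less of that RNA per cell cannot be told apart either.

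Each RPM value was a whole multiple of what 1 read was worth in its library, which gave back the reads and the totals. The totals ranged from 341001 to 562081 reads in kin-3, from 5337646 to 5608712 in prde-1, from 699884 to 969718 in prg-1 and from 913321 to 1342764 in WT. Pooled over the libraries of a genotype, prde-1 was 12.1 times deeper than kin-3. A locus without a read could therefore still have held 3.32 RPM in kin-3, 0.274 RPM in prde-1, 1.80 RPM in prg-1 and 1.33 RPM in WT, if 3 reads are taken as the limit. Listed piRNAs summed to 224 ± 22.8 RPM in kin-3, 394 ± 12.0 RPM in prde-1, 226 ± 4.27 RPM in prg-1 and 13182 ± 205 RPM in WT (SD, n = 2 each). Their reads equalled 1.32% of the WT totals. If these totals include them, taking them out would raise every other WT RPM value 1.013-fold. Which reads the totals include is not stated, and changes in the other RNAs that make them up were not tested. Intervals below are exact 95% intervals on pooled reads and cover counting error only.

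The 3 loci are each 21 nt long, and all of each locus lies within 1 exon of its host on the opposite strand. Positions are those of the table, which match the WBcel235 annotation. 21ur-9719 lies on chromosome X from 9072394 to 9072414 on the minus strand, in exon 5 of linc-22. Linc-22 runs over 4598 bp in 5 exons, of which exon 5 takes up 3571 bp, and the locus starts 2229 bases into that exon. 21ur-9823 lies on chromosome III from 1371141 to 1371161 on the minus strand, in exon 2 of the 3 exons of linc-24. That exon is 84 bp long, and the locus ends 9 bases from its downstream splice junction. 21ur-8285 lies on chromosome II from 3373666 to 3373686 on the plus strand, in exon 2 of the 2 exons of linc-11, 497 bases from the end of the gene. None of the 3 loci overlaps an exon of any other annotated gene. The nearest coding genes are 4772, 3244 and 1393 bases away for 21ur-9719, 21ur-9823 and 21ur-8285. Isolation from other piRNA loci was shared by 21ur-9823 and 21ur-8285, whose nearest listed piRNA lies 332553 and 207197 bases away, whereas 21ur-9719 shares its exon with the listed locus 21ur-15566.

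**Figure D1:**
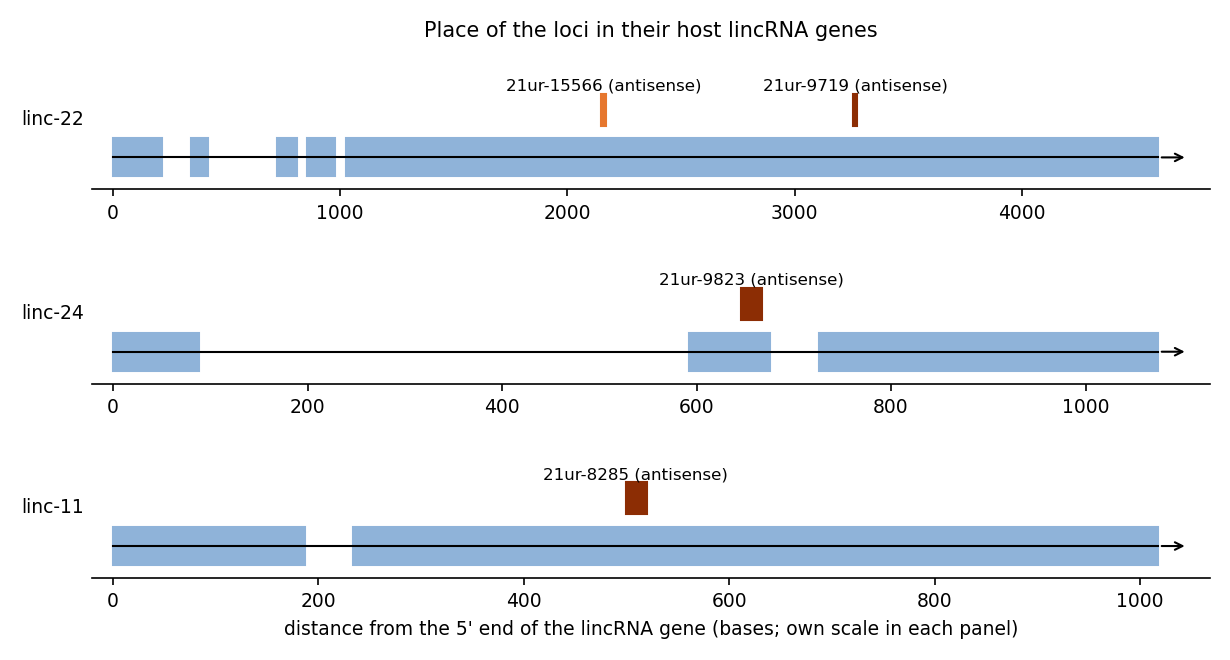
Host lincRNA genes drawn 5′ to 3′ with distance from their 5′ end in bases on the x axis, each panel on its own scale; blue boxes are exons, dark boxes are the 3 loci and the orange box is 21ur-15566, all on the strand opposite to the host. 21ur-9719 and 21ur-15566 lie in the same 3571 bp exon of linc-22, and 21ur-9823 ends 9 bases before the end of an 84 bp exon of linc-24.

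21ur-9719 was the most abundant of the 3 loci in every library and stood highest in prg-1 and kin-3. Its level was 88.0 and 71.2 RPM in kin-3 (30 and 40 reads), 28.5 and 29.6 RPM in prde-1 (152 and 166 reads) and 84.6 and 100.02 RPM in prg-1 (82 and 70 reads), against 10.4 and 16.4 RPM in WT (14 and 15 reads). All 6 mutant libraries lay above both WT libraries. The kin-3 and prg-1 libraries overlapped each other, and both prde-1 libraries lay between them and WT. Relative to WT the pooled level was 6.03-fold higher in kin-3 (95% interval 3.86 to 9.64), 2.26-fold higher in prde-1 (1.54 to 3.43) and 7.08-fold higher in prg-1 (4.74 to 10.9). The fitted log2 fold changes on the log2(RPM + 1) scale were 2.51, 1.09 and 2.72, each with an SE of 0.27. Between the mutants, the pooled level in kin-3 was 2.67 times that in prde-1 (2.03 to 3.47) and 0.851 times that in prg-1 (0.632 to 1.14). In prde-1 it was 0.319 times that in prg-1 (0.262 to 0.390). The order from high to low was thus prg-1, kin-3, prde-1 and WT, in which the first pair do not differ beyond the spread of their libraries.

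That order depends on the scaling. TMM rescaling treats most loci as unchanged, whereas at least 680 of the 695 loci tested were called lower in each mutant, and its factors ran from 0.115 in a prde-1 library to 3.64 in a WT library. After it, 21ur-9719 stood at 39.8 and 33.8 in kin-3, 248 and 245 in prde-1, and 97.2 and 74.1 in prg-1, against 2.86 and 4.54 in WT, all in rescaled RPM. Each mutant was then still above WT, but prde-1 came first among the mutants. TMM moved the median log2 fold change of all tested loci by 1.46 (kin-3), 1.495 (prde-1) and 1.45 (prg-1). Relative to that median, the log2 fold change of 21ur-9719 was 5.56 (kin-3), 4.15 (prde-1) and 5.76 (prg-1) on the deposited scale, and 4.63, 7.31 and 5.81 in the same order after TMM. That median is limited by the floor, as most tested loci had no mutant read, and these differences share that limit.

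A scale that uses neither the library total nor TMM is given by the listed loci outside chromosome IV, 102 in number, that are not antisense to lincRNA exons. Per read of these loci, 21ur-9719 had 1.58 and 1.29 reads in kin-3, 0.284 and 0.279 in prde-1 and 1.64 and 2.26 in prg-1, against 0.151 and 0.231 in WT. Here too all 6 mutant libraries lay above both WT libraries. The 102 loci were themselves not level: they summed to 55.4 ± 0.4003 RPM in kin-3, 103 ± 4.14 RPM in prde-1 and 47.9 ± 5.14 RPM in prg-1, against 70.2 ± 1.35 RPM in WT (SD, n = 2 each). On this scale 21ur-9719 was 7.63-fold higher in kin-3, 1.53-fold higher in prde-1 and 10.2-fold higher in prg-1 than in WT. The fitted log2 fold change in prde-1 was 0.56 on it, against 1.09 on the deposited scale, and limma made no call for prde-1 there.

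21ur-9823, opposite linc-24, was a low locus that stood highest in kin-3. It had 8.80 and 10.7 RPM in kin-3 (3 and 6 reads), 4.12 and 2.85 RPM in prde-1 (22 and 16 reads) and 4.12 and 2.86 RPM in prg-1 (4 and 2 reads), against 0.745 and 2.19 RPM in WT (1 and 2 reads). Both kin-3 libraries lay above all other libraries, the prde-1 and prg-1 libraries overlapped each other, and both WT libraries were the lowest. The pooled level was 7.49-fold higher in kin-3 than in WT (1.87 to 43.0). The ratios were 2.61 in prde-1 (0.828 to 13.2) and 2.70 in prg-1 (0.577 to 16.7), and both intervals include 1. The fitted log2 fold changes were 2.18 (kin-3), 0.91 (prde-1) and 0.91 (prg-1), each with an SE of 0.34. Limma shares that SE over the genotypes and draws it towards the spread of other tested loci. It does not measure the counting error of so few WT reads, for which the intervals above are given. In kin-3 the level was 2.87 times that in prde-1 (1.22 to 6.04) and 2.77 times that in prg-1 (0.882 to 9.47), and in prde-1 it was 0.966 times that in prg-1 (0.405 to 2.80). With TMM rescaling the prde-1 libraries, at 35.9 and 23.6 in rescaled RPM, lay above those of kin-3 at 3.98 and 5.07, so the place of kin-3 at the top holds on the deposited scale and not on that one.

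21ur-8285, opposite linc-11, did not share the pattern of the other two. It had 0 and 5.34 RPM in kin-3 (0 and 3 reads), 3.37 and 2.85 RPM in prde-1 (18 and 16 reads) and no read in either prg-1 library, against 5.21 and 1.09 RPM in WT (7 and 1 reads). The 2 prde-1 libraries lay within the range of the WT libraries, whose own values were 4.76-fold apart. The kin-3 library without a read has a limit of 8.80 RPM at 3 reads, above both WT values, so it cannot be placed against that range. The other kin-3 library lay just above the range. Both prg-1 values of 0 lay below it, with limits of 3.09 and 4.29 RPM that lie within it. The pooled ratio to WT was 0.937 in kin-3 (0.160 to 3.90) and 0.876 in prde-1 (0.398 to 2.19), and both intervals include 1. In prg-1 the level was at least 1.97-fold lower than in WT, taking 3 pooled reads as the limit of prg-1, and the counting interval gives a bound of 1.26-fold. That bound rests on WT replicate 1, which held 7 of the 8 WT reads: WT replicate 2 alone, at 1.09 RPM, lies under the prg-1 limit of 1.80 RPM. At the pooled prg-1 total, the WT level would have given 5.92 reads and the prde-1 level 5.19 reads. In prde-1 the level was at least 1.73-fold higher than in prg-1 by the same limit, and 1.33-fold by the counting interval. The fitted log2 fold change in kin-3 was -0.52 (SE 0.97) and turned to 0.08 with TMM rescaling. In prde-1 it was 0.19 (SE 0.97) and turned to -0.19 in edgeR and to -0.21 on the scale of the 102 loci, so that no direction can be given for 21ur-8285 in kin-3 or prde-1.

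**Figure D2:**
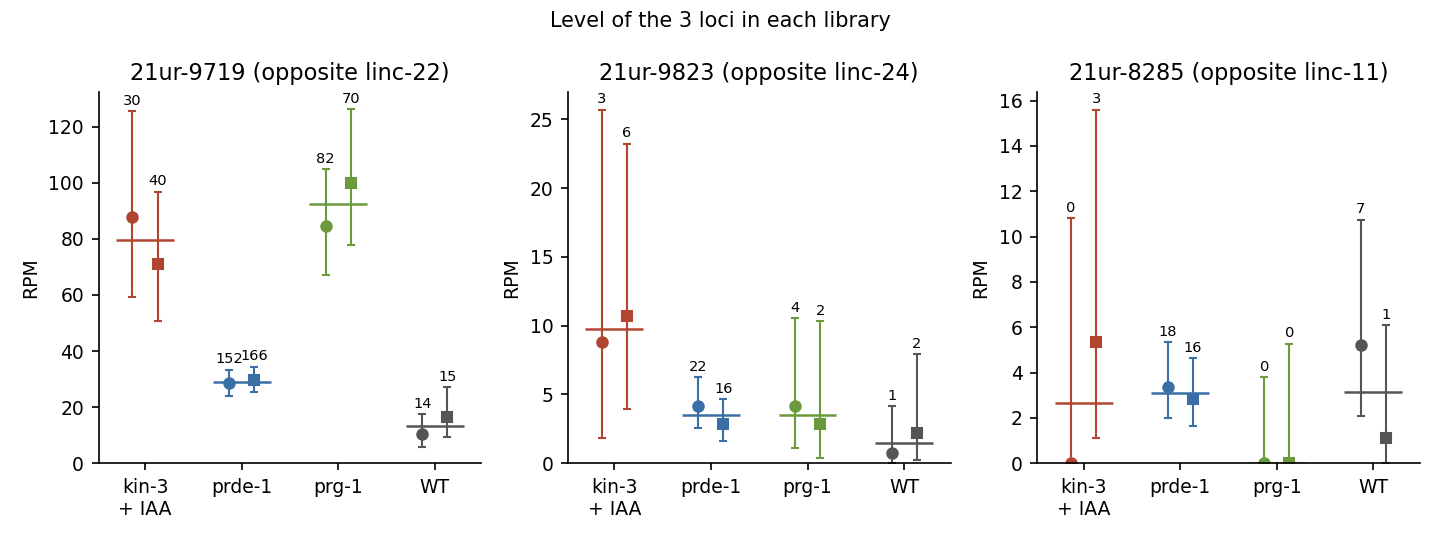
Level of each locus in RPM (linear y axis, own scale in each panel) in each library of kin-3 with IAA, prde-1, prg-1 and WT; circles are replicate 1, squares replicate 2, horizontal lines the mean, bars the exact 95% counting interval, and the numbers above them the reads. For 21ur-9719 all 6 mutant libraries lie above the 2 WT libraries, while for 21ur-8285 the kin-3 and prde-1 libraries overlap WT and both prg-1 libraries are at 0.

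In both kin-3 and both prg-1 libraries 21ur-9719 was the listed locus with the most reads. It held 36.6% and 34.2% of all listed piRNA reads in kin-3 (95% exact binomial intervals 26.2 to 48.0% and 25.7 to 43.5%), 7.39% and 7.35% in prde-1 (6.30 to 8.61% and 6.31 to 8.51%) and 36.9% and 44.9% in prg-1 (30.6 to 43.7% and 36.9 to 53.0%). In WT it held 0.0782% and 0.126% (0.0428 to 0.131% and 0.0705 to 0.208%). It ranked 4 in both prde-1 libraries and 246 and 119 in the WT libraries. 21ur-9823 ranked 4 in both kin-3 libraries, 6 and 9 in prde-1 and 6 and 5 in prg-1, but 2189 and 1083 in WT. These shares depend on the other listed piRNAs as well as on the locus itself, and the listed total was lower in each mutant than in WT, so a high share is not by itself a high level. In prde-1 the chromosome IV locus 21ur-1430 alone had 218 and 234 RPM, of listed sums of 385 and 402 RPM. The prde-1 shares of the 3 loci are lowered by it. Of the reads of the 3 loci together, 21ur-9719 held 85.4% (kin-3), 81.5% (prde-1) and 96.2% (prg-1), against 72.5% in WT. The summed level of the 3 loci therefore mostly describes 21ur-9719: it was 92.0 ± 6.79 RPM in kin-3, 35.6 ± 0.473 RPM in prde-1 and 95.8 ± 10.03 RPM in prg-1, against 18.05 ± 2.35 RPM in WT (SD, n = 2 each). Without 21ur-9719 the sum was 12.4 ± 5.10 RPM in kin-3, 6.60 ± 1.26 RPM in prde-1 and 3.49 ± 0.896 RPM in prg-1, against 4.62 ± 1.89 RPM in WT. The prg-1 sum without it was 0.737 times that of WT (0.224 to 2.17), while the prg-1 sum of all 3 was 5.34 times that of WT (3.75 to 7.75).

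**Figure D3:**
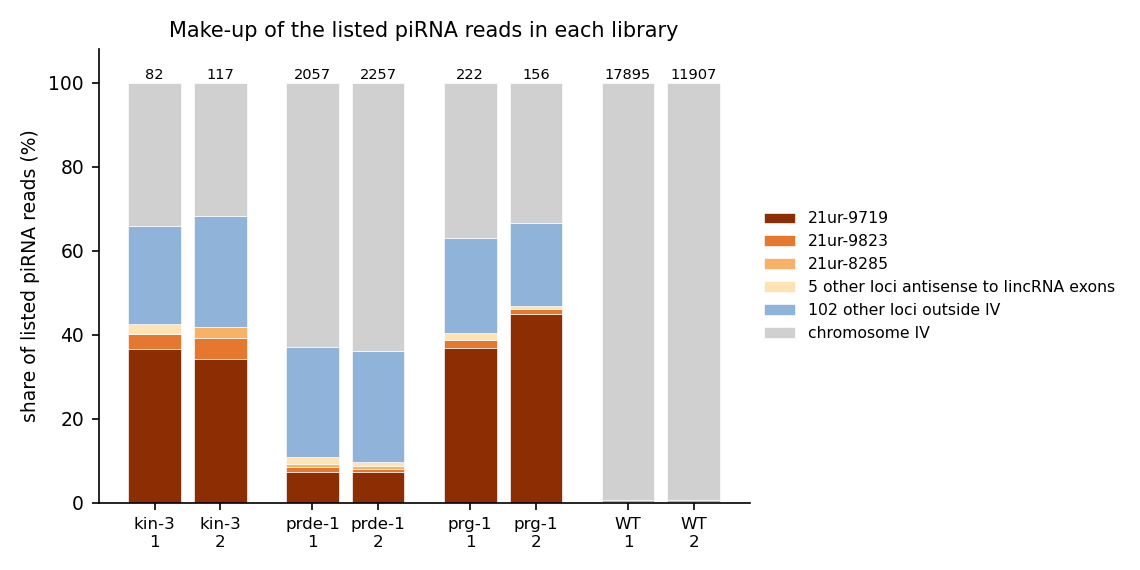
Share of the listed piRNA reads (y axis, percent) held by each locus or list of loci in every library, with the number of listed piRNA reads above each bar. 21ur-9719 holds 34.2 to 44.9% in the kin-3 and prg-1 libraries, about 7.4% in prde-1 and at most 0.126% in WT, where chromosome IV fills nearly the whole bar.

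The 3 loci are not all of their kind. The annotation holds 9 piRNA genes antisense to a lincRNA exon, of which 8 are listed and 1 was not analysed here. The 8 listed loci lie in 6 lincRNA genes, and 7 of them lie outside chromosome IV. These 7 are 6.42% of the 109 listed loci outside chromosome IV, where none lies sense to a lincRNA exon. The mean over the 8 libraries passed the filter of 1 RPM at 21ur-9719 (53.6 RPM), 21ur-9823 (4.55), 21ur-9127 (2.72), 21ur-8285 (2.23) and 21ur-13684 (1.71). Just outside it was 21ur-15566 at 0.609 RPM, followed by 21ur-12752 at 0.0468 RPM and 21ur-9757 without a read in any library. 21ur-13684 passed only through its mutant levels, since it had no WT read.

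21ur-9127 is the single one of the 8 on chromosome IV (5737411 to 5737431, plus strand, opposite linc-134). It had 2.93 and 0 RPM in kin-3 (1 and 0 reads) and no read in prde-1 or prg-1, against 11.2 and 7.66 RPM in WT (15 and 7 reads). All mutant libraries lay below both WT libraries. The kin-3 level was 0.114 times that of WT (0.00275 to 0.703). Taking 3 pooled reads as the limit, the level was at least 35.6-fold lower in prde-1 and 5.43-fold lower in prg-1. The counting intervals give lower bounds of 26.6-fold and 4.05-fold. Limma called it lower in each mutant, a call made at 97.8% of all tested loci for kin-3, at 98.3% for prde-1 and at 98% for prg-1. It passed the filter through its WT level, with a mean of 9.42 RPM, so nothing is read from that call.

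The other four lie on chromosomes V and X and were low. 21ur-13684 (V 16319095 to 16319115, plus strand, opposite exon 6 of linc-59 and a pseudogene exon) had 2.93 and 0 RPM in kin-3 (1 and 0 reads), 4.12 and 3.57 RPM in prde-1 (42 reads in all) and 3.09 and 0 RPM in prg-1 (3 and 0 reads), and no read in WT. In prde-1 it was at least 2.88-fold higher than in WT with 3 pooled WT reads as the limit, and 2.245-fold by the counting interval. The neighbouring 21ur-12752, in the same exon with 30 bases between them, had 2 reads, both in a prde-1 library. 21ur-15566, opposite linc-22 and a small nucleolar RNA gene, had 1.87 and 0.535 RPM in prde-1 (10 and 3 reads) and 1.031 and 1.43 RPM in prg-1 (1 read each), and no read in kin-3 or WT. Pooled over the libraries of each genotype, both levels lie under the WT limit of 1.33 RPM, and the pooled prde-1 level would have given 1.07 reads at the kin-3 total, so a difference from WT or kin-3 was not detectable at this depth.

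Within the shared exon of linc-22, 1085 bases apart, read counts of the loci differed. Both are 21 nt long, but whether reads of the 2 sequences are captured and mapped alike was not tested. 21ur-9719 had 24.5 times the reads of 21ur-15566 in prde-1 (318 against 13 reads, 14.1 to 46.4) and 76.0 times in prg-1 (152 against 2 reads, 20.7 to 633). With 3 reads as the limit of 21ur-15566, it had at least 23.3 times in kin-3 and 9.67 times in WT. The counting intervals give lower bounds of 18.5 times in kin-3 and 7.37 times in WT. In linc-59, in prde-1, 21ur-13684 had 21 times the reads of 21ur-12752 (5.46 to 179).

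As a background, both kin-3 libraries lay above both WT libraries at 2 of 695 tested loci (0.288%), and these were 21ur-9719 and 21ur-9823. In prde-1 this held at 7 of 695 loci (1.01%) and at 2 of the 3, and in prg-1 at 4 of 695 (0.576%) and at the same 2 of the 3. Limma called the same 2 of the 3 higher in each mutant, out of 2 such calls in kin-3 (0.288%), 6 calls in prde-1 (0.863%) and 3 calls in prg-1 (0.432%). Limma made no call for 21ur-8285 on the deposited scale with all 8 libraries, although both prg-1 libraries lay below both WT libraries there, as they did at 98.4% of the tested loci. Since the loci were chosen with these contrasts in view, nothing is read from the counts. The higher calls rest on few libraries: leaving out one kin-3 library or the other gave 4 loci called higher in kin-3, leaving out one prde-1 library or the other gave 3 in prde-1, and leaving out prg-1 replicate 2 or WT replicate 1 gave 1 in prg-1. Under 16 alternative settings the call of 21ur-9823 was kept in all 16 for kin-3, in 3 for prde-1 and in 4 for prg-1, and edgeR made it for kin-3 alone. That of 21ur-9719 was kept in 16 of 17 for kin-3, in 13 for prde-1 and in 16 for prg-1. 21ur-8285 was called in none of 16 for kin-3, in 1 for prde-1 (higher, with TMM) and in 3 for prg-1 (lower, in edgeR and when one kin-3 library or the other was left out). These tallies describe the calls and are no test of the 3 loci. They include fits that drop a library of a genotype not compared, and fits without a WT library, whose calls are unreliable. The 3 mutants are compared with the same 2 WT libraries.

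**Figure D4:**
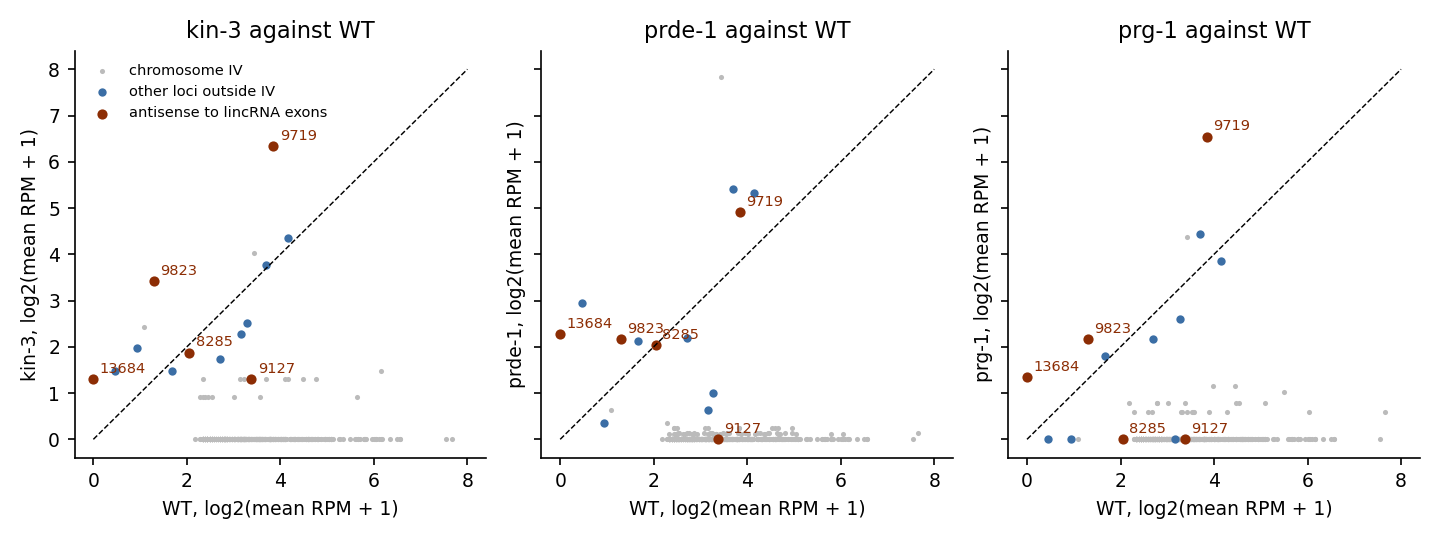
Mean level of the 695 tested loci in each mutant (y axis) against WT (x axis), both as log2(mean RPM + 1); grey points are chromosome IV, blue points other loci outside it, and red points loci antisense to lincRNA exons, marked with the number in their 21ur name. Points above the dashed line are higher in the mutant: 21ur-9719 and 21ur-9823 lie above it in each panel, and 21ur-9127 lies below it with most of chromosome IV.

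Over the 5 tested loci antisense to lincRNA exons, the median log2 fold change was 0.99 (kin-3), 0.91 (prde-1) and 0.91 (prg-1). Among them, 2 were called higher and 1 lower in each mutant. Of all tested loci, 0.288% (kin-3), 0.863% (prde-1) and 0.432% (prg-1) were called higher, and 97.8%, 98.3% and 98% lower. Nothing is read from the counts of calls in these lists. Over all 695 tested loci the medians were -3.06, -3.06 and -3.04 in that order of genotypes. These are limited by the floor: the 683 tested loci on chromosome IV had a median of -3.10 in each mutant, since most had no read there. Pooled over all listed chromosome IV loci, the level was 179.5-fold lower in kin-3, 52.5-fold in prde-1 and 163.5-fold in prg-1. The chromosome IV loci summed to 250 ± 9.98 RPM in prde-1 (SD, n = 2), of which the locus 21ur-1430 alone had 218 and 234 RPM. That locus had 5.87 and 24.9 RPM in kin-3 and 16.5 and 22.9 RPM in prg-1, against 11.9 and 7.66 RPM in WT. The pooled prde-1 ratio thus mostly describes 21ur-1430, and nothing is read from the order of the mutants in these ratios. Over the 8 other tested loci outside chromosome IV the median log2 fold changes were -0.03, 0.20 and -0.47, with 0, 3 and 1 called higher and 1, 2 and 1 called lower. Among these 8, the 3 antisense to coding exons had medians of -0.96, -0.50 and -0.53. A locus could pass the filter through its WT reads, as most of the 683 on chromosome IV did, or through mutant reads, as 21ur-13684 did. These medians therefore describe the loci that passed and not all that are listed. Summed over all listed loci whether or not they passed, the 7 outside chromosome IV opposite lincRNA exons had 93.4 ± 8.86 RPM in kin-3, 40.9 ± 2.08 RPM in prde-1 and 98.6 ± 8.13 RPM in prg-1, against 18.05 ± 2.35 RPM in WT (SD, n = 2 each). The 27 outside chromosome IV opposite coding exons had 27.4 ± 1.47 RPM in kin-3, 46.2 ± 2.78 RPM in prde-1 and 16.9 ± 3.75 RPM in prg-1, against 35.4 ± 0.502 RPM in WT. Most of the sum of the 7 came from 21ur-9719. Without it the other 6 had 13.9 ± 3.03 RPM in kin-3, 11.8 ± 2.87 RPM in prde-1 and 6.27 ± 2.80 RPM in prg-1, against 4.62 ± 1.89 RPM in WT. The kin-3 and prde-1 libraries overlapped, and so did those of prg-1 and WT, with a pooled ratio of prg-1 to WT of 1.35 (0.531 to 3.44).

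The tested locus whose log2(RPM + 1) over the 8 libraries was most like that of 21ur-9719 was 21ur-9823, with a Pearson correlation of 0.73, and the reverse also held. The next for 21ur-9719 were 21ur-13684 (0.21) and 21ur-12864 on chromosome II (0.08), and for 21ur-9823 they were 21ur-13684 (0.28) and 21ur-12937 on chromosome I (0.20). Of the 694 loci compared with each, none other than these 2 thus had a correlation above 0.21 with 21ur-9719 or above 0.28 with 21ur-9823. Of the tested loci, however, 683 lie on chromosome IV, with a median log2 fold change of -3.10 in each mutant, and only 12 lie outside it. Loci that are lower in the mutants differ by that alone from loci that are higher there. The 2 loci were also chosen after their levels had been seen, so nothing is read from their place among the 694. 21ur-8285 was most like 21ur-15587 on chromosome I (0.74), 21ur-10492 on chromosome II (0.63) and 21ur-2656 on chromosome IV (0.59). 21ur-15587 had 0 and 3.56 RPM in kin-3, 6.74 and 6.60 RPM in prde-1 and no read in prg-1, against 0.745 and 0 RPM in WT. It shares with 21ur-8285 the reads in 1 kin-3 library and the lack of reads in prg-1. These correlations run over 8 libraries that come in pairs of 1 genotype and share the depth of each pair.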

How the data were processed

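Small RNA libraries of whole worms were analysed from 1 deposited table of 9742 piRNAs with 1 RPM column for each of 8 libraries. Per the labels' protocols, column-enriched small RNAs were treated with PIR-1, ligated to adaptors and sequenced. Per the submitters' processing notes, the authors used cutadapt 1.18 and Bowtie 1.2.1.1. Neither their settings nor the genome build nor the rule for reads that match several places is given in the sources used here. The deposited RPM are reads scaled to a total of 1000000, with no statement of which reads that total includes. All 7488 positive values gave whole reads (tolerance 0.01), or 100%.

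Names, exons and hosts came from the Ensembl release 115 annotation of WBcel235, which matched 9620 of the listed rows by position and strand. No sequence was used, so motifs and first bases were not analysed here.

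Fits used limma 3.58.1 in R 4.3.3 (trended prior) on log2(RPM + 1), with genotype as the factor across the 8 libraries, for the 695 loci with a mean of at least 1 RPM, with Benjamini-Hochberg adjustment at 0.05, two-sided. As an alternative, recovered reads went through the quasi-likelihood test of edgeR 4.0.16, which called 2 loci higher and 675 lower in kin-3, 6 and 683 in prde-1, and 2 and 683 in prg-1. Both were run on simulated data in which most loci were unchanged, unlike in these mutants, so nothing is read from that run. The pseudocount shrinks the fold changes of low loci. Each SE is shared over the genotypes and drawn towards the spread of all tested loci, of which 84.2% had no deviation in any mutant. The loci named were the 3, their hosts, other loci antisense to lincRNA exons, listed loci within 5 kb and the 3 most alike loci. The members and lists were chosen with earlier results of these data known. A planned list of cell type markers was not applicable to a piRNA table.

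Nothing in the labels says that replicate libraries came from separate cultures, and their spread may be technical. No difference beyond sampling noise was found in how reads of replicates spread over loci (chi-square p = 0.135 over 4 loci with at least 10 reads in kin-3, 0.118 over 17 in prde-1, 0.711 over 4 in prg-1 and 0.141 over 647 in WT). Over so few loci the test can detect little in the mutants, and it does not compare levels. None of the pairs held identical values, and they were kept as 2 libraries each.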

Additional observations from a re-analysis of the deposited data

How the results depend on the processing

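Depth limits the low loci most, since 1 read was worth 2.93 RPM in a kin-3 library and 0.178 RPM in a prde-1 library, and 21ur-9823 and 21ur-8285 rest on 3 and 8 WT reads. 21ur-9719 and 21ur-9823 kept their direction against WT in each mutant under every alternative run for their fold change, and 21ur-8285 did so in prg-1 only. The cause of the changes below was not tested.

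With TMM rescaling the log2 fold changes of 21ur-9719, 21ur-9823 and 21ur-8285 in prde-1 were 5.74, 4.44 and 3.94. In kin-3 TMM gave 3.03 for 21ur-9719 and 0.079 for 21ur-8285, and in prg-1 it gave 4.21 for 21ur-9719 and 1.61 for 21ur-9823. On the scale of the other loci outside chromosome IV, chosen after seeing the data, 21ur-9719 had 0.56 in prde-1 and 3.27 in prg-1, 21ur-8285 had -0.21 in prde-1, and 3 loci were called higher in prde-1. Pseudocount 5 gave 1.19 for 21ur-9823 in kin-3 and -0.66 for 21ur-8285 in prg-1, where pseudocount 0.1 gave -4.66. EdgeR gave 2.85 for 21ur-9823 in kin-3, -0.19 for 21ur-8285 in prde-1 and -5.83 for 21ur-8285 in prg-1; the last depends on the prior count, as prg-1 had no read.

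Without the filter, where 4878 loci are tested, the lower calls numbered 2214 (kin-3), 2216 (prde-1) and 2208 (prg-1). Under a stricter filter of 10 RPM, where 31 are tested, 27 were lower in each mutant and 1 was higher in kin-3. TMM gave 11 higher in prde-1 and 5 in prg-1. Under the stricter filter 21ur-9823 is no longer compared, and the locus most like 21ur-9719 was 21ur-10824 (Pearson correlation 0.04).

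With 1 library left out, and the lone library of its genotype taken to vary like the others, the count called higher ranged from 2 to 4 in kin-3, from 3 to 6 in prde-1 and from 1 to 3 in prg-1. The log2 fold change of 21ur-8285 ranged from -1.85 to 0.81 in kin-3, turning positive without kin-3 replicate 1 or WT replicate 1 (0.27), and from -0.60 to 0.97 in prde-1, turning negative without WT replicate 2. When one WT library or the other was left out, 84.2% of tested loci had a residual variance of 0, so those calls are unreliable. The deviations of mutant and WT libraries with the same replicate number correlated at 0.0241 (kin-3), 0.00611 (prde-1) and -0.0286 (prg-1). Those 84.2% of loci had no deviation in any mutant, so the correlations say little on whether replicate numbers pair the libraries. The fit with the replicate block called 2 loci higher in kin-3, 6 higher in prde-1 and 2 higher in prg-1.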
